A study of Caenorhabditis elegans with 119 samples.

Results

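Wild-type worms kept on sulforaphane (SFN) were compared late in life, at day 16 of adulthood against day 12. The 8 libraries, 4 per age, were chosen by their labels, and the series holds 111 more. Each held RNA of about 50 whole Caenorhabditis elegans worms of the strain N2. SFN is an isothiocyanate that broccoli releases when its tissue is crushed. Worms went onto SFN plates on day 1 of adulthood, at 20 °C, with Escherichia coli OP50-1 as food. Every group used here shared 51 µM FUdR, a DNA synthesis inhibitor given to stop progeny, and 0.25% DMSO, the solvent of SFN. The labels used here give no SFN concentration. Replicates were biological and were aged and collected together, per the labels' protocols. For comparison, 4 DMSO libraries per age from the same count table covered the same 2 ages, and 16 DMSO libraries of trials 2 and 3 gave day 16 and day 12 in other worms, 4 per age and trial.

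In C. elegans the intestine is the main organ of digestion, fat storage and secreted defence. It also makes the vitellogenins, which are the yolk proteins that oocytes take up from the body cavity. Gut cells secrete or store lysozymes, saposin-like proteins, C-type lectins, cathepsins and aspartyl proteases, which act on bacteria eaten as food. SKN-1, the Nrf-type transcription factor of the worm, drives genes of detoxification that electrophiles such as SFN induce.

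Total counts were 3.23 to 5.89 M (1000000 counts) at day 16 and 3.68 to 8.62 M at day 12 on SFN, and 8.11 to 10.4 M at day 16 and 10.6 to 12.5 M at day 12 on DMSO. Ribosomal RNA genes took 1.71 to 2.07% of counts at day 16 and 2.58 to 3.30% at day 12 on SFN, so these ranges did not overlap. On DMSO they took 0.549 to 0.750% at day 16 and 0.560 to 1.05% at day 12, lower than on SFN at both ages. At a common depth of 3.23 M counts, between 15472 and 15950 genes were detected at day 16, against 15928 to 16261 at day 12. Every fixed marker of intestine, muscle, oocytes and germline was detected at both ages, while 2 of 5 hypodermis markers were at 0 in all day 16 libraries. Germline markers summed to 2573 to 2889 CPM (counts scaled to 1000000 per library) at day 16 and 2102 to 2482 CPM at day 12, with all 4 members tested and 0 past the threshold. The 9 oocyte and eggshell markers summed to 12161 to 13973 CPM at day 16 and 10518 to 12139 CPM at day 12, also with 0 past the threshold. Marker sums were scaled by total counts only, without the TMM factors used for single genes. Those factors were 1.07 to 1.08 at day 16 and 1.02 to 1.05 at day 12 on SFN. With them the germline and oocyte sums of the 2 ages would lie closer together. What these shifts contribute to the gene changes given next was not tested. In whole worms, fewer cells of a type and less RNA per cell cannot be told apart.

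From day 12 to day 16 on SFN, most genes that passed were lower, and yolk, digestive, defence, lipid, collagen and muscle genes were among them. Of 12735 genes tested, 828 (6.5%) passed an adjusted p under 0.05 in edgeR's quasi-likelihood test, 790 of them lower (6.2%) and 38 higher (0.298%) at day 16. The medians, shares and orders given next describe genes picked by this same test, so their direction and separation are no further support. The genes that fell had a median log2 fold change of -1.48, against -0.03 over all genes, and 246 of them fell by more than 2 on the log2 scale. Together they took 4.68 ± 0.652% of all counts at day 16 and 11.8 ± 2.00% at day 12 (SD, n = 4). All 4 day 16 libraries lay below all 4 day 12 libraries for 751 of the 790 genes, while over all tested genes 14.1% had that order. The genes that rose had a median of 1.16, and all day 16 libraries lay above all day 12 libraries for 36 of the 38, against 6.47% over all tested genes. An unadjusted p under 0.05 was reached by 2039 genes.

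The size of the excess of losses over gains differed between fits. The main fit held all 40 N2 libraries of the table. With only the 8 SFN libraries in the fit, 1432 of 10694 genes tested were lower and 719 higher. Without the 2 DMSO libraries of smallest total count, an alternative chosen after seeing the data, 1109 of 13150 were lower and 396 higher. On all 40 libraries, the stricter filter gave 785 lower and 100 higher, and limma-voom 1845 lower and 883 higher. Losses outnumbered gains in each of these fits. Leaving out SFN day 12 replicate 1 reduced the counts to 515 lower and 20 higher, leaving out SFN day 16 replicate 3 to 550 lower and 16 higher, and leaving out SFN day 12 replicate 2 to 665 lower and 21 higher.

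**Figure D1:**
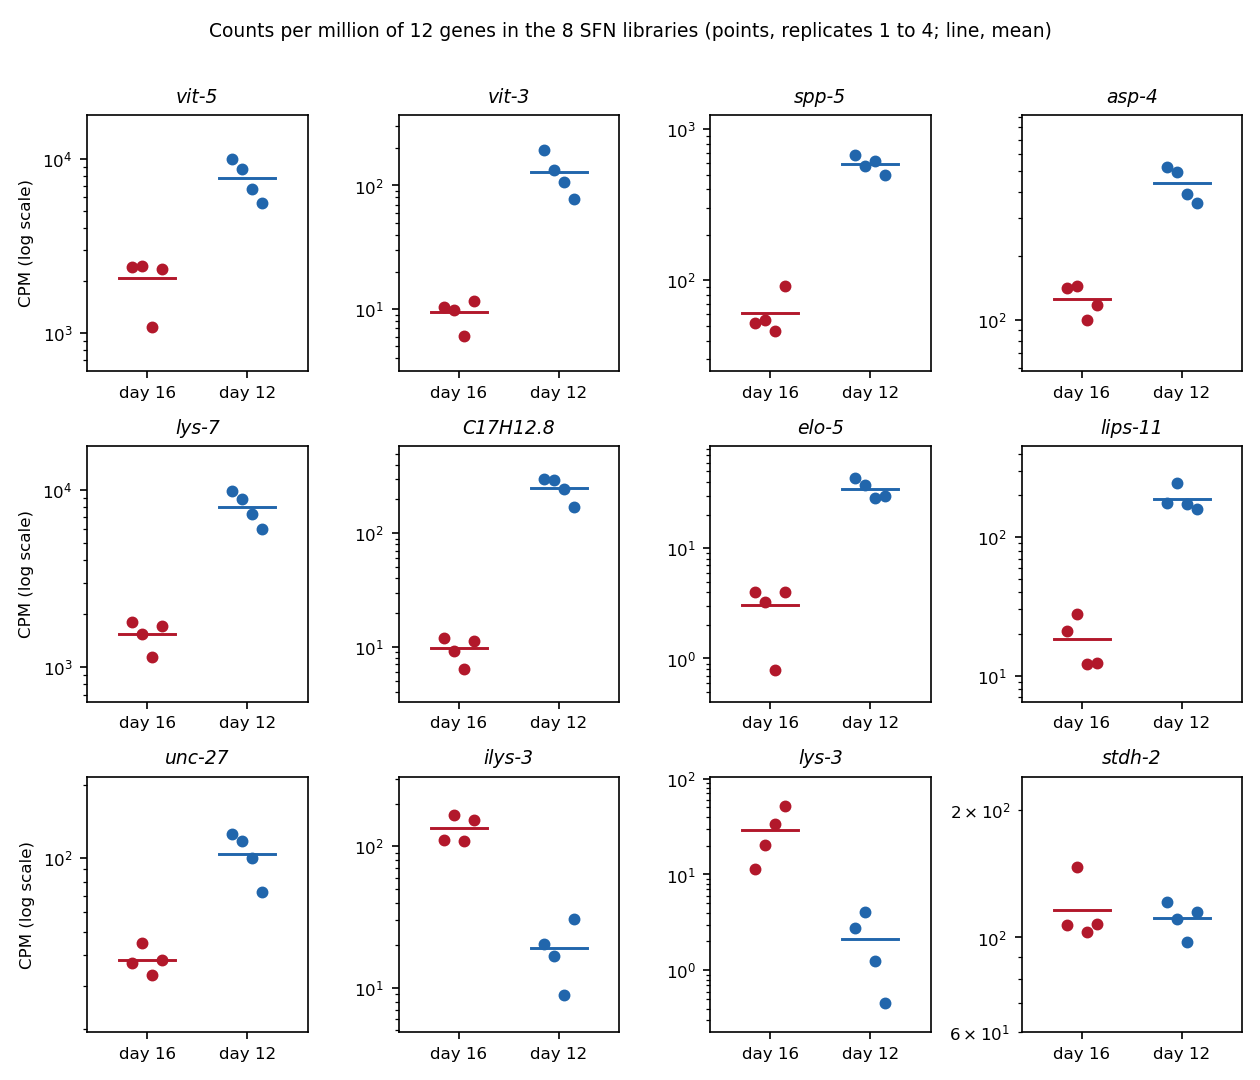
Levels in CPM (log axis) of 12 genes in each SFN library, with day 16 in red on the left and day 12 in blue on the right of each panel, 1 point per library and a line at the mean of 4. For 9 genes every day 16 library lies below every day 12 library, for ilys-3 and lys-3 every day 16 library lies above, and for stdh-2 the ages overlap.

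Every vitellogenin gene fell. The 6 members had a median log2 fold change of -2.59 (lowest -3.79, highest -1.58), and their share of all counts was 0.819 ± 0.226% at day 16 against 2.61 ± 0.564% at day 12 (SD, n = 4). The large yolk gene vit-5 (WBGene00006929, chromosome X, 3403471 to 3408603, in WBcel235 as all coordinates here) stood at 2405, 2434, 1083 and 2339.8 CPM in the 4 day 16 libraries, against 9898, 8727, 6677 and 5561 CPM at day 12. All day 16 libraries were lower, and replicate 3 was the lowest of them. Its log2 fold change was -1.90 ± 0.19 (SE, adjusted p = 1.8e-09), that of vit-2 -1.74 ± 0.20 (adjusted p = 6.4e-08) and that of vit-6 -1.58 ± 0.20 (adjusted p = 6.3e-07; edgeR quasi-likelihood test, as for all adjusted p below).

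The near-identical pair vit-3 and vit-4 had larger fold changes. Levels of vit-3 (WBGene00006927, chromosome X, 3567355 to 3572549) were 10.4, 9.87, 6.01 and 11.7 CPM at day 16 against 194, 133, 107.6 and 77.6 CPM at day 12, with no overlap. Its fold change was -3.79 ± 0.28 on the log2 scale (adjusted p = 8.5e-12), and the values of vit-4 and vit-1 were -3.27 ± 0.33 and -3.38 ± 0.26 (adjusted p = 7.3e-09 and 1.6e-11). Reads of such close copies may have been split or shared in the authors' counting, so the single members are uncertain. On DMSO, vitellogenins took 0.328 ± 0.0704% of counts at day 16 and 1.30 ± 0.203% at day 12. All 6 also fell in trials 2 and 3, where 8.07% of genes tested passed in either direction and 4.84% fell.

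**Figure D2:**
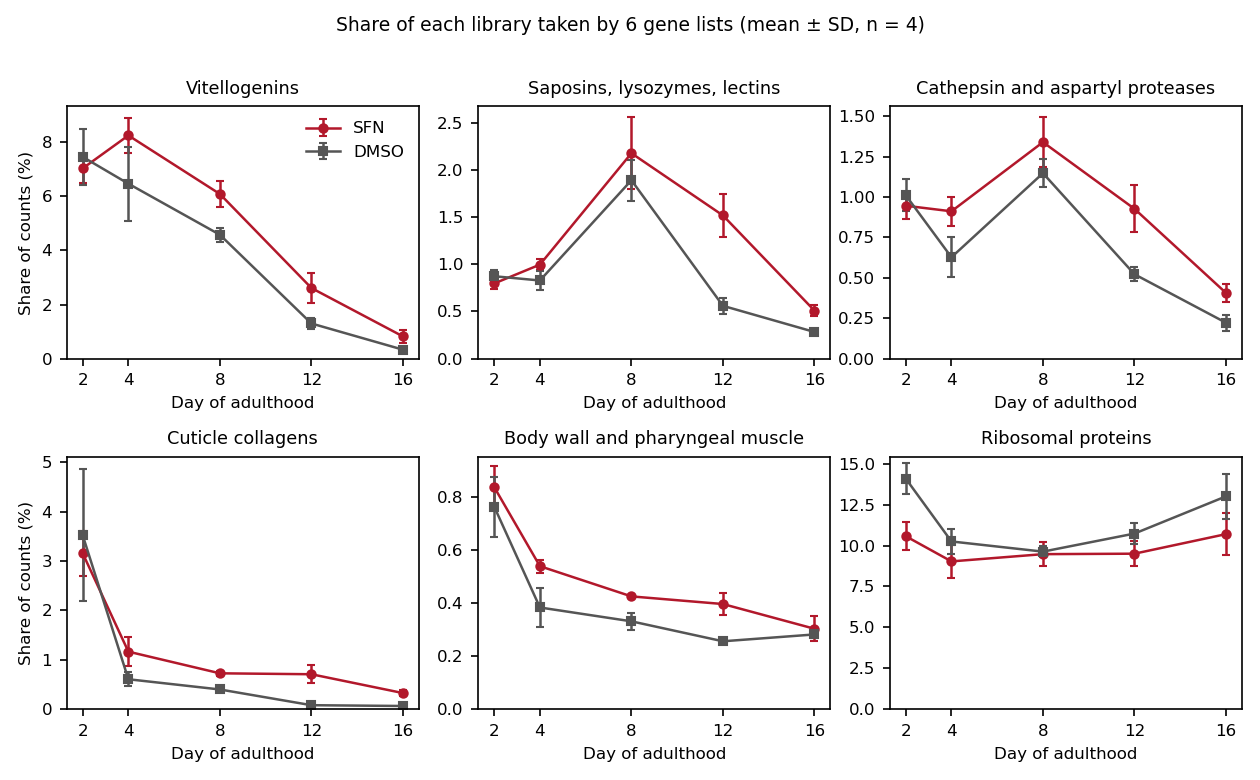
Share of all counts (%) taken by 6 gene lists at days 2, 4, 8, 12 and 16, on SFN (red circles) and on DMSO (grey squares), mean ± SD of 4 libraries. All panels but the last end lower at day 16 than at day 12 on SFN, the vitellogenins at 0.819% against 2.61% and muscle at 0.304% against 0.397%. Ribosomal proteins end at 10.7% against 9.51%.

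Digestive proteases fell too. Of 23 cathepsin and aspartyl proteases tested, 19 fell and 0 rose, with a median of -1.81. The cathepsin D-like gene asp-4 (WBGene00000217, chromosome X, 13218985 to 13221462) had 141, 145, 100.7 and 118 CPM at day 16 against 524, 496, 389 and 353 CPM at day 12, a log2 fold change of -1.80 ± 0.14 (adjusted p = 4.8e-13). All day 16 libraries lay under all day 12 libraries. The aspartyl protease gene asp-5 fell by 2.56 on the log2 scale (adjusted p = 3.5e-09), and cpr-6, which encodes a cathepsin B-like protease, by 2.09 (adjusted p = 1.2e-10). A further aspartyl protease gene, asp-13, reached 1.17 ± 0.743 CPM at day 16 against 20.7 ± 3.60 CPM at day 12 (SD, n = 4), a fold change of -4.22 ± 0.43 (adjusted p = 3.5e-09). Of the members that did not fall, cpr-2 had a positive value, 0.81 ± 0.30, which did not pass (adjusted p = 0.12).

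Saposin-like genes encode small proteins that insert into membranes, and several kill bacteria. Of 22 tested, 13 fell and 1 rose, with a median of -1.83. The caenopore gene spp-5 (WBGene00004990, chromosome X, 7319937 to 7320354) had 52.5, 55.0, 46.1 and 91.3 CPM at day 16 against 674, 573, 618 and 497 CPM at day 12, a log2 fold change of -3.29 ± 0.23 (adjusted p = 8.8e-13). A larger fall was seen for spp-2 (WBGene00004987, chromosome X, 7315995 to 7316818), with 9.99, 6.58, 5.22 and 14.6 CPM at day 16 and 316, 278, 301 and 207 CPM at day 12 (-4.98 ± 0.35, adjusted p = 3.6e-12). The fall of spp-4 left 1 count over all day 16 libraries against 158 counts over the day 12 libraries, a scaled ratio of 0.00736 with an exact 95% interval of 0.000185 to 0.0416 that covers counting error only. In contrast, spp-27 rose to 29.2 ± 12.9 CPM at day 16, against 6.65 ± 3.06 CPM at day 12 (2.09 ± 0.45, adjusted p = 0.0011).

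Lysozymes, the enzymes that cut bacterial cell walls, went in both directions. Of 12 tested, 6 fell and 3 rose. The protist-type gene lys-7 (WBGene00003096, chromosome V, 3481432 to 3482600) had 1799.7, 1545, 1140.1 and 1708 CPM at day 16 against 9884, 8912, 7305 and 5973 CPM at day 12, a log2 fold change of -2.37 ± 0.31 (adjusted p = 1.5e-06). Its relatives lys-8 and lys-1 had -3.08 ± 0.27 and -2.73 ± 0.23 (adjusted p = 2.4e-10 and 8.2e-11). The largest fall of the list was that of the invertebrate-type gene ilys-5 (WBGene00017691, chromosome X, 6533490 to 6536840), with 3.27, 3.05, 1.42 and 6.87 CPM at day 16 against 237.6, 210.5, 206 and 144 CPM at day 12 (-5.90 ± 0.47, adjusted p = 5.9e-11). The ages did not overlap, and its step on DMSO was -5.95 ± 0.69 (adjusted p = 3.8e-07).

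The 3 lysozymes that rose were ilys-3, ilys-2 and lys-3. Levels of ilys-3 (WBGene00016670, chromosome IV, 2464456 to 2465443), which helps worms digest bacteria, were 111.7, 168, 109 and 153 CPM at day 16 against 20.4, 16.9, 8.97 and 30.8 CPM at day 12. The lowest day 16 library was above the highest day 12 library, and the log2 fold change was 2.82 ± 0.26 (adjusted p = 2.1e-10). Its neighbour ilys-2 (WBGene00016669, chromosome IV, 2467678 to 2468879) had 16.7, 20.7, 13.6 and 24.6 CPM at day 16 against 3.78, 4.03, 1.43 and 10.7 CPM at day 12 (1.95 ± 0.39, adjusted p = 0.00032). For lys-3 (WBGene00003092, chromosome V, 10282100 to 10283544) the levels were 11.5, 20.4, 33.7 and 51.5 CPM at day 16 and 2.75, 4.03, 1.26 and 0.457 CPM at day 12 (3.77 ± 0.55, adjusted p = 2.3e-06), with a wide spread within each age but no overlap. On SFN, ilys-3 was at 2.23 ± 0.636 CPM at day 8, whereas on DMSO it had a mean of 77.0 ± 6.54 CPM at day 16 and 172 ± 57.2 CPM at day 12.

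**Figure D3:**
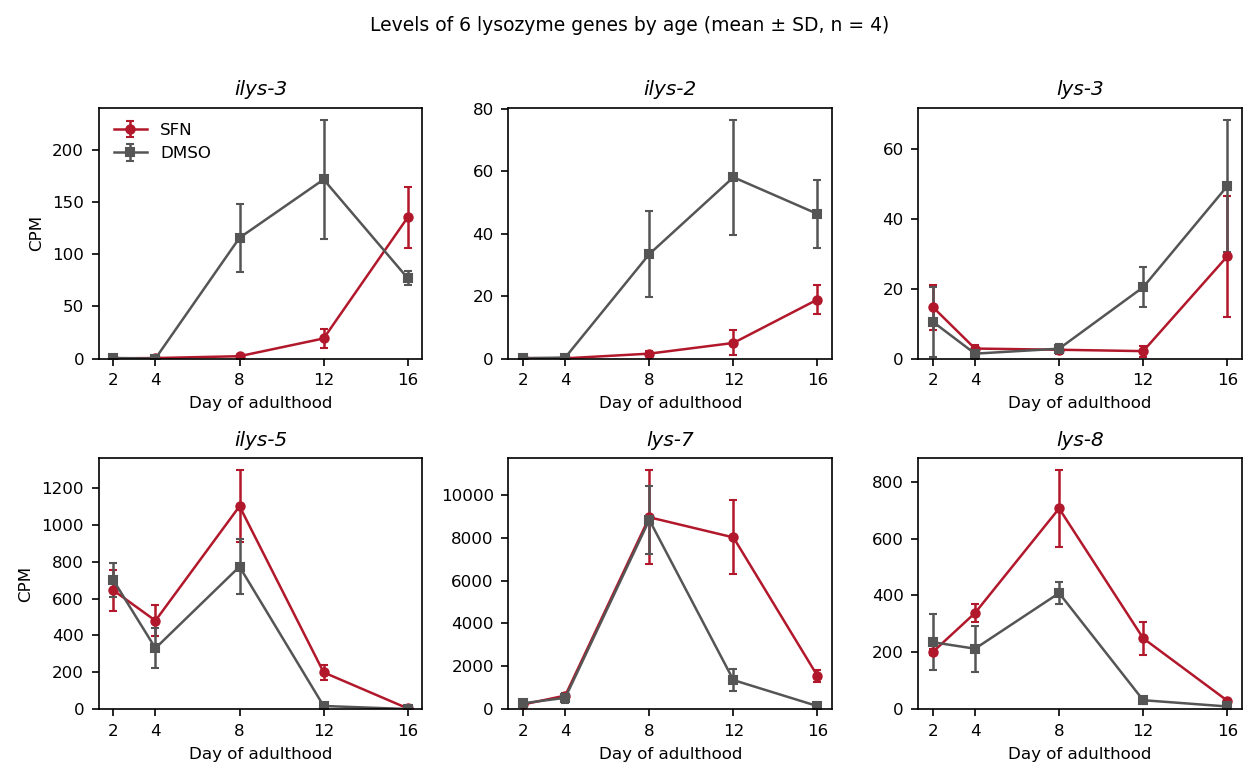
Levels (CPM, linear axes) of 6 lysozyme genes at days 2, 4, 8, 12 and 16 on SFN (red circles) and DMSO (grey squares), mean ± SD of 4 libraries. In the upper row SFN levels end higher at day 16 than at day 12, with ilys-3 at 135 CPM against 19.3 CPM, and in the lower row they end lower, with lys-8 at 29.5 CPM against 249 CPM.

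C-type lectins, sugar-binding proteins of which many are induced by infection, were the largest of the defence families. Of 81 tested, 30 fell and 0 rose, with a median of -1.22. The gut lectin gene clec-50 (WBGene00012253, chromosome V, 19752399 to 19755368) had 23.1, 18.3, 11.6 and 30.3 CPM at day 16 against 342, 279.7, 237.6 and 171 CPM at day 12 (-3.67 ± 0.29, adjusted p = 3.6e-11). Other lectin genes, clec-62, clec-85 and clec-160, had log2 fold changes of -2.38 ± 0.20, -3.51 ± 0.31 and -3.47 ± 0.35 (adjusted p = 8.8e-13, 2.4e-10 and 7.9e-10). Among 23 genes induced by pathogens or by the PMK-1 p38 kinase, 9 fell and 0 rose. One of them, C17H12.8 (WBGene00015933, chromosome IV, 6818703 to 6820575), had 11.9, 9.16, 6.33 and 11.2 CPM at day 16 and 304, 297, 244 and 171 CPM at day 12, a fold change of -4.75 ± 0.31 (adjusted p = 8.7e-13). The values of sysm-1 and of the infection response gene irg-3 were -4.68 ± 0.49 and -3.90 ± 0.42 (adjusted p = 1.2e-08 and 4.2e-09). The epidermis makes antimicrobial peptides of the nlp and cnc families. Of 20 genes listed for them 3 fell, against 6.2% of all genes tested: nlp-29, cnc-4 and hmit-1.1, which is of neither family. The gene nlp-29 had 12.5 ± 2.31 CPM at day 16 against 39.9 ± 5.19 CPM at day 12 (-1.68 ± 0.25, adjusted p = 1.7e-06). For cnc-4 the fold change was -0.89 (adjusted p = 0.039). Over the fits without 1 SFN library its adjusted p ran from 0.036 to 0.25.

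A part of the general gut genes fell. In a list of 29 intestinal genes 11 fell and 0 rose, with a median of -1.01. Those that fell included the gut esterase gene ges-1 (-1.88 ± 0.26, adjusted p = 3.3e-07) and vha-6, a proton pump subunit of the gut's apical membrane (-1.66 ± 0.19, adjusted p = 4.9e-09). In the shorter list of 6 defining intestinal markers 3 fell, with a median of -1.36. The summed level of the 6 overlapped between ages, at 103 to 228 CPM at day 16 and 177 to 239 CPM at day 12. Each of the 6 was detected in the libraries of both ages. The contribution of gut cell number to the falls was not tested.

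Lipid enzymes also declined. Of 18 fatty acid desaturases and elongases, 10 fell and 0 rose, and the count was 10 in every alternative fit and with each SFN library left out. The elongase gene elo-5 (WBGene00001243, chromosome IV, 5374616 to 5377117), needed for branched-chain fatty acids, had 4.04, 3.29, 0.791 and 4.01 CPM at day 16 against 43.4, 37.6, 28.5 and 29.7 CPM at day 12. That gave a log2 fold change of -3.59 ± 0.36 (adjusted p = 2.4e-10), and its partner elo-6 had -2.51 ± 0.24 (adjusted p = 8.4e-11). The desaturase genes of polyunsaturated fatty acid synthesis fat-2 and fat-3 had -1.35 ± 0.16 and -1.91 ± 0.25 (adjusted p = 4e-08 and 6.3e-07). Of 55 genes of fatty acid breakdown and lipases, 18 fell and 0 rose. The lipase gene lips-11 (WBGene00020472, chromosome II, 1108841 to 1111001) had 21.1, 27.7, 12.0 and 12.31 CPM at day 16 against 175, 244, 174 and 160.5 CPM at day 12 (-3.36 ± 0.26, adjusted p = 7.7e-12), and lipl-5, of the lysosomal lipase family, fell by 3.32 (adjusted p = 2.4e-10).

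Metabolic genes outside fat storage showed the same direction where they passed. The acyl-CoA dehydrogenase gene acdh-1, of the alternative propionate breakdown route, had 0.554 ± 0.489 CPM at day 16 and 14.05 ± 2.99 CPM at day 12 (-4.49 ± 0.58, adjusted p = 7.1e-07). The nuclear receptor gene nhr-68, which acts in the same route, had -2.31 ± 0.35 (adjusted p = 2.5e-06). Of 32 genes of glycolysis, the glyoxylate cycle and trehalose, 7 fell, including icl-1 of the glyoxylate cycle (-1.87 ± 0.24, adjusted p = 5.4e-07) and the trehalase gene tre-3 (-1.98 ± 0.27, adjusted p = 2.6e-07). Fatty acid binding and transport genes fell in 8 of 17 cases. The secreted binding protein gene far-2 had 1493, 1742, 1472 and 1302 CPM at day 16 against 3277, 2677, 2482 and 2405 CPM at day 12 (-0.85 ± 0.11, adjusted p = 2e-07), and lbp-2 had -1.58 ± 0.20 (adjusted p = 2.3e-07).

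Several genes of the fixed set of SFN markers gave no call between these ages in the main fit. This does not hold for all genes above their DMSO level. For instance, spp-2, with 275 CPM on SFN and 8.09 CPM on DMSO at day 12, fell. The steroid dehydrogenase family gene stdh-2 had 107, 146, 103 and 107 CPM at day 16 and 121, 110.3, 97.6 and 115 CPM at day 12, and its log2 fold change was 0.06 ± 0.24 (adjusted p = 0.93). On DMSO it averaged 0.0792 ± 0.158 CPM at day 16 and 0.267 ± 0.266 CPM at day 12. The glutathione S-transferase gene gst-5 had 224, 345, 295 and 325 CPM at day 16 and 351, 329, 329.8 and 326 CPM at day 12 (-0.17 ± 0.17, adjusted p = 0.7). Both ages overlapped for these genes. The cadmium-responsive gene cdr-4 had 0.15 ± 0.17 (adjusted p = 0.73), and the SKN-1 reporter gene gst-4 had -0.58 ± 0.28 (adjusted p = 0.29). For gst-31, gst-37 and cyp-13A10 the values were 0.35 ± 0.38, 0.50 ± 0.33 and 0.51 ± 0.24 (adjusted p = 0.73, 0.51 and 0.26). With only the 8 SFN libraries in the fit, gst-4 passed as lower and gst-31, gst-37 and cyp-13A10 as higher.

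Some SFN-responsive genes did fall. The gene far-3, of a family that binds fatty acids and retinol (WBGene00001387, chromosome V, 12996787 to 12997522) had 208, 299, 208 and 250.5 CPM at day 16 against 906, 689, 598 and 587 CPM at day 12 (-1.53 ± 0.33, adjusted p = 0.0021), and it averaged 3.19 ± 2.18 CPM at day 16 and 8.69 ± 5.40 CPM at day 12 on DMSO. The gene C15B12.8 had -0.89 ± 0.26 (adjusted p = 0.021), with 37.5 ± 3.86 CPM at day 16 against 69.3 ± 14.97 CPM at day 12. Its adjusted p ran from 0.025 to 0.22 over the 8 fits that left out 1 SFN library, and missed the threshold without SFN day 16 replicate 1, SFN day 16 replicate 3 or SFN day 12 replicate 1. The regulator genes skn-1 and daf-16 (the FOXO factor of insulin signalling) had -0.01 ± 0.09 and -0.11 ± 0.10 (adjusted p = 0.98 and 0.68).

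Across the detoxification families, losses outnumbered gains, as they did over all tested genes (6.2% lower and 0.298% higher). Glutathione S-transferases had 5 members that fell and 1 that rose of 32. Those that fell included gst-24 (-0.76 ± 0.16, adjusted p = 0.00074) and gst-10 (-1.70 ± 0.28, adjusted p = 1.3e-05), while gst-14 rose to 10.1 ± 1.33 CPM at day 16, against 2.56 ± 1.19 CPM at day 12 (1.97 ± 0.50, adjusted p = 0.0074). UDP-glucuronosyltransferases, which attach sugars to small molecules, fell in 13 of 58 cases, and in 22 with only the 8 SFN libraries in the fit. The strongest fall among them was that of ugt-44, with 0.489 ± 0.331 CPM at day 16 and 25.2 ± 9.24 CPM at day 12 (-5.58 ± 0.68, adjusted p = 1.9e-07), and ugt-22 had -2.39 ± 0.27 (adjusted p = 4.7e-09). Cytochrome P450s fell in 12 of 50 cases, among them cyp-35C1 (-2.61 ± 0.41, adjusted p = 1.2e-05) and cyp-35A2 (-1.50 ± 0.32, adjusted p = 0.001). The count for P450s was 4 to 10 when 1 SFN library was left out, at 4 without SFN day 12 replicate 1, 5 without SFN day 16 replicate 3 and 7 without SFN day 16 replicate 1 or 2.

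**Figure D4:**
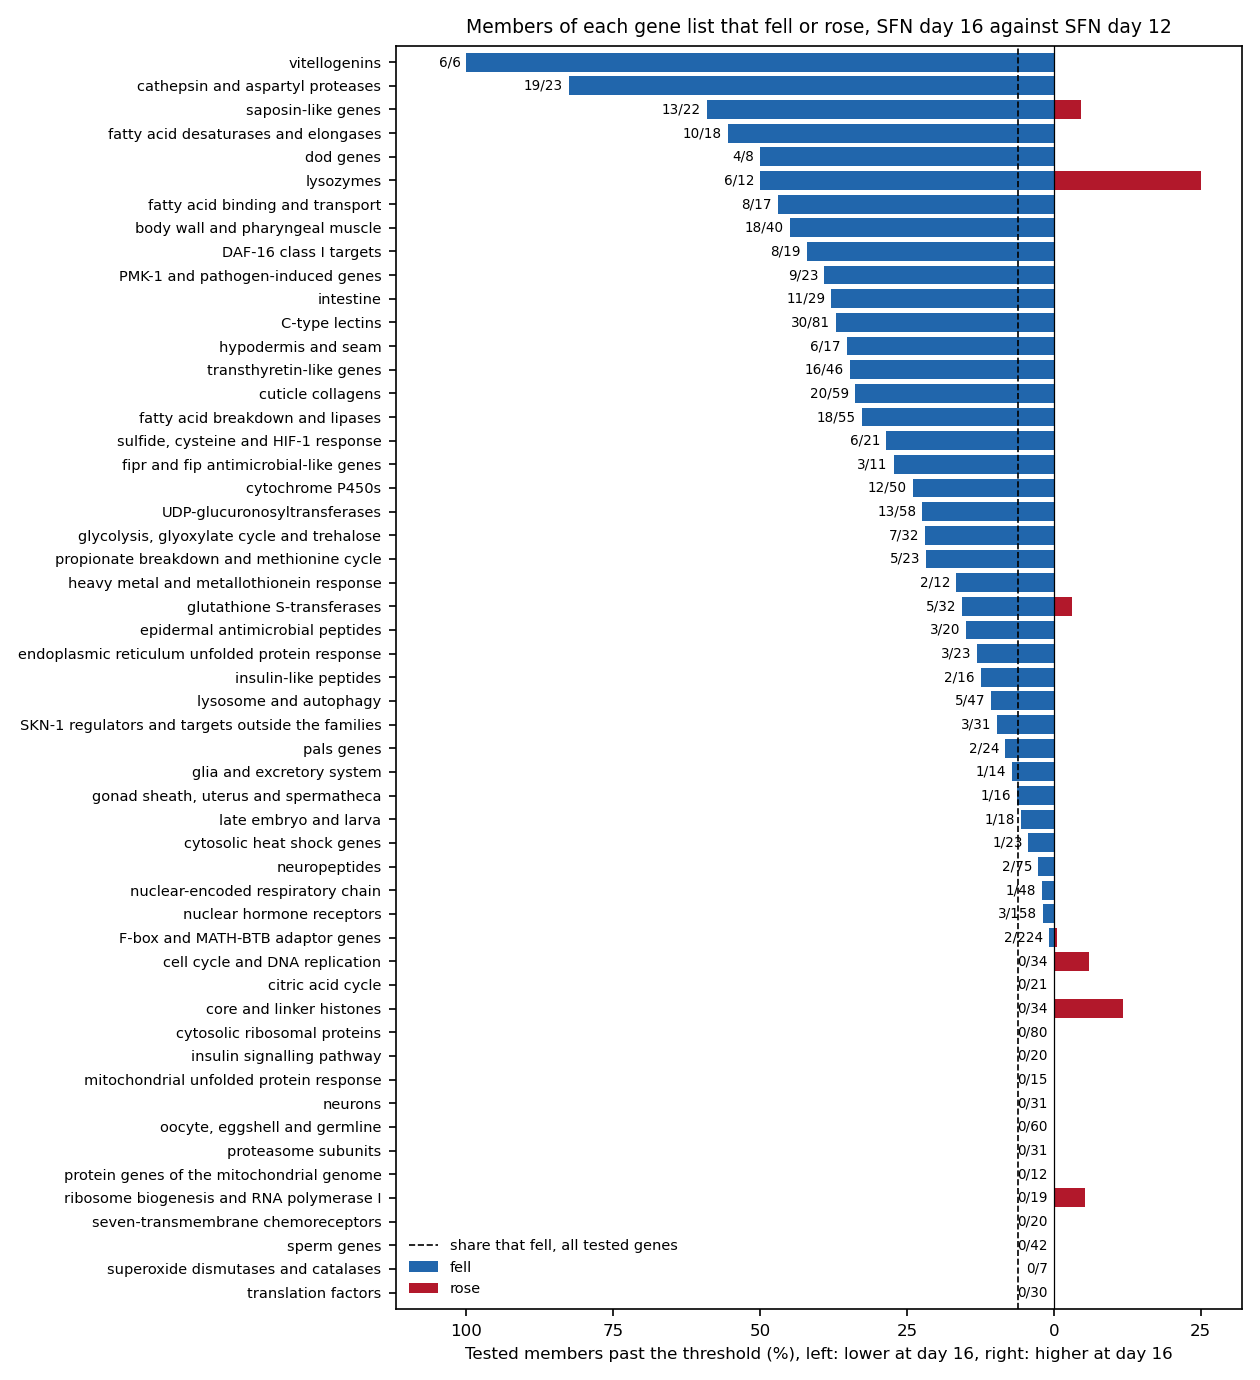
Tested members (%) of each gene list past the threshold at day 16 against day 12 on SFN, lower to the left in blue and higher to the right in red, for lists with at least 6 members tested. Numbers give members that fell over members tested, and the dashed line marks the 6.2% of all tested genes that fell. Vitellogenins (6 of 6) and cathepsin and aspartyl proteases (19 of 23) stand at the top.

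Structural genes of skin and muscle fell as well. Of 59 cuticle collagens tested, 20 fell and 0 rose, with a median of -1.05, and the count was 10 without SFN day 12 replicate 1 and 12 without SFN day 16 replicate 3. Collagens took 0.324 ± 0.0642% of counts at day 16 and 0.705 ± 0.186% at day 12 (SD, n = 4). The collagen gene col-101 (WBGene00000675, chromosome IV, 325435 to 327020) had 47.3, 49.8, 27.7 and 26.9 CPM at day 16 against 187, 272, 149 and 127 CPM at day 12 (-2.27 ± 0.38, adjusted p = 7.3e-05), and col-178 and col-181 had -1.92 ± 0.32 and -1.05 ± 0.26 (adjusted p = 7e-05 and 0.0066). Collagen copies are similar in sequence, so single members are uncertain.

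Muscle genes fell on SFN, and a part of them differed from the DMSO step. Of 40 genes of body wall and pharyngeal muscle, 18 fell and 0 rose on SFN, with a median of -0.59, whereas the DMSO step of the same table had a median of 0.27. The troponin I gene unc-27 (WBGene00006764, chromosome X, 8789456 to 8790621) had 37.3, 45.1, 33.1 and 38.4 CPM at day 16 against 126, 117, 100.4 and 72.6 CPM at day 12, a log2 fold change of -1.45 ± 0.23 (adjusted p = 2e-05). On DMSO it averaged 15.1 ± 3.36 CPM at day 16 and 11.5 ± 0.648 CPM at day 12. The test of the difference between the SFN step and the DMSO step gave -1.84 ± 0.34 for unc-27 (adjusted p = 0.0018), -1.15 ± 0.25 for the myosin light chain gene mlc-1 (adjusted p = 0.0062) and -1.81 ± 0.36 for the calponin-like gene clik-1 (adjusted p = 0.0046). In all, 13 of the 40 differed toward lower on SFN and 0 toward higher, against 1.14% and 0.636% of all genes tested. The defining body wall muscle markers summed to 167 to 420 CPM at day 16 and 426 to 625 CPM at day 12 on SFN, with 2 of 4 past the threshold as lower. The 4 pharyngeal muscle markers overlapped, at 139 to 240 CPM at day 16 and 165 to 206 CPM at day 12. Of these 0 passed and 2 were negative, with a median of -0.11. In trials 2 and 3, 11 of the 40 genes were higher at day 16 and 1 lower, against 3.23% and 4.84% of all genes tested there.

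Calls in further lists ranged from a sizeable share of the members to 0. Transthyretin-like genes, a secreted nematode family, fell in 16 of 46 cases. Of the 46, 6 differed from the DMSO step, all toward lower on SFN, against 1.14% of all genes tested. The gene ttr-36 had 5.77, 4.23, 6.81 and 6.01 CPM at day 16 against 30.1, 27.4, 25.11 and 20.3 CPM at day 12 (-2.16 ± 0.25, adjusted p = 6.1e-09; difference of steps -2.43 ± 0.36, adjusted p = 3.2e-05), and ttr-46 had -1.60 ± 0.14 (adjusted p = 8.5e-12). In a list drawn up for hypodermis and seam, 6 of 17 genes fell. Among them were dhs-3, hmit-1.1 and mup-4, which anchors muscle through the epidermis (-1.56 ± 0.24, adjusted p = 2.5e-06). Whether the listed genes are active in those cells only was not tested. Of the 5 fixed hypodermis markers 2 were tested and 0 passed. Of 31 neuronal genes 0 passed in edgeR (3 at an unadjusted p under 0.05, 1 by DESeq2 and 4 by limma-voom). Of 75 genes in the neuropeptide list 2 fell. They were nlp-29, the antimicrobial peptide gene already counted above, and the gut signal gene nlp-40 (-1.04 ± 0.18, adjusted p = 7.7e-05). The neuronal list had a median of -0.16.

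Stress and insulin genes were mixed. The 20 genes of the insulin signalling pathway gave 0 calls in edgeR, with 0 at an unadjusted p under 0.05, 0 by DESeq2 and 4 by limma-voom. The 15 genes of the mitochondrial unfolded protein response also gave 0 in edgeR, with 5 at an unadjusted p under 0.05, 1 by DESeq2 and 5 by limma-voom. The insulin-like peptide gene ins-7, a gut signal, fell to 4.80 ± 2.08 CPM at day 16, against 25.14 ± 5.42 CPM at day 12 (-2.42 ± 0.38, adjusted p = 5.1e-06). DAF-16 class I targets fell in 8 of 19 cases, among them dod-3 (-1.85 ± 0.36, adjusted p = 0.00028), while sod-3 had -0.67 ± 0.58 (adjusted p = 0.64). The small heat shock gene hsp-16.2 had 9.03, 23.3, 28.01 and 22.3 CPM at day 16 and 5.27, 9.13, 8.61 and 9.81 CPM at day 12, with overlap and a fold change of 1.35 ± 0.52 that did not pass (adjusted p = 0.14). It passed with only the 8 SFN libraries in the fit, in which 9 of 23 heat shock genes were higher and 1 lower, against 0 higher and 1 lower in the main result. The endoplasmic reticulum folding genes hsp-3 and pdi-2 fell, with -0.51 ± 0.11 and -0.52 ± 0.12 (adjusted p = 0.00069 and 0.0036).

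Gains outside the lysozymes were few. The gene fib-1, which encodes the nucleolar protein fibrillarin, rose to 923 ± 37.7 CPM at day 16, against 742 ± 37.7 CPM at day 12 (0.32 ± 0.10, adjusted p = 0.03). Its adjusted p ran from 0.029 to 0.11 over the fits without 1 SFN library, and it missed the threshold with DESeq2 size factors and with no filter. The thioredoxin gene trx-3 (WBGene00019717, chromosome IV, 4487028 to 4489000) had 3.27, 4.93, 7.28 and 10.9 CPM at day 16 against 1.37, 0.537, 0.897 and 2.05 CPM at day 12 (2.37 ± 0.44, adjusted p = 0.00011). The F-box gene fbxa-24 had 31.9, 44.9, 38.9 and 39.8 CPM at day 16 against 21.4, 14.8, 14.3 and 18.03 CPM at day 12 (1.17 ± 0.23, adjusted p = 0.00031), and it also rose in trials 2 and 3 (1.31 ± 0.23, adjusted p = 0.00031). Of the genes known by sequence names that rose, F39G3.4 had 4.24 ± 0.79 (adjusted p = 0.00012), Y54G2A.57 1.82 ± 0.42 (adjusted p = 0.0024) and B0238.12 1.23 ± 0.30 (adjusted p = 0.0037). Histones, whose gene copies are alike in sequence, rose in 4 of 34 cases, in 1 or 2 when any of the SFN libraries but day 16 replicate 1 was left out, and in 11 with only the 8 SFN libraries in the fit. Of these his-60 had 1.34 ± 0.27 (adjusted p = 0.0003). The other 3, his-48, his-62 and his-64, had 1.50, 1.07 and 1.41 with adjusted p of 0.023, 0.024 and 0.037, which over the fits without 1 SFN library ran from 0.016 to 0.09, from 0.018 to 0.095 and from 0.04 to 0.12. With DESeq2 size factors, or with the replicate number as a block, his-64 did not pass.

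Genes of the germline and of the proteasome sat slightly higher at day 16 without passing in the 40-library fit. The 60 oocyte, eggshell and germline genes had a median log2 fold change of 0.16 with 3 negative and 0 called in edgeR, and the 31 proteasome subunits a median of 0.20 with 0 negative and 0 called. At an unadjusted p under 0.05 the germline list had 12 genes higher and the proteasome list 16, DESeq2 called 0 and 1, and limma-voom 29 and 24. Of 34 cell cycle and DNA replication genes 2 rose, the ribonucleotide reductase gene rnr-1 (0.28 ± 0.08, adjusted p = 0.025) and the replication helicase gene mcm-5 (0.31 ± 0.10, adjusted p = 0.044). Over the fits without 1 SFN library the adjusted p of rnr-1 ran from 0.021 to 0.13 and that of mcm-5 from 0.047 to 0.2. Both missed the threshold with no filter, and rnr-1 also with DESeq2 size factors. These counts turned on the fit. With only the 8 SFN libraries, 23 of the 60 germline genes, 23 of the 31 proteasome subunits and 16 of the 34 cell cycle genes passed as higher and 0 as lower. The 80 ribosomal protein genes had a median of 0.11 with 0 called in edgeR (4 at an unadjusted p under 0.05, 2 by DESeq2 and 7 by limma-voom). In trials 2 and 3 they had a median of 0.33 with 60 higher, against 3.23% of all genes tested there.

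**Figure D5:**
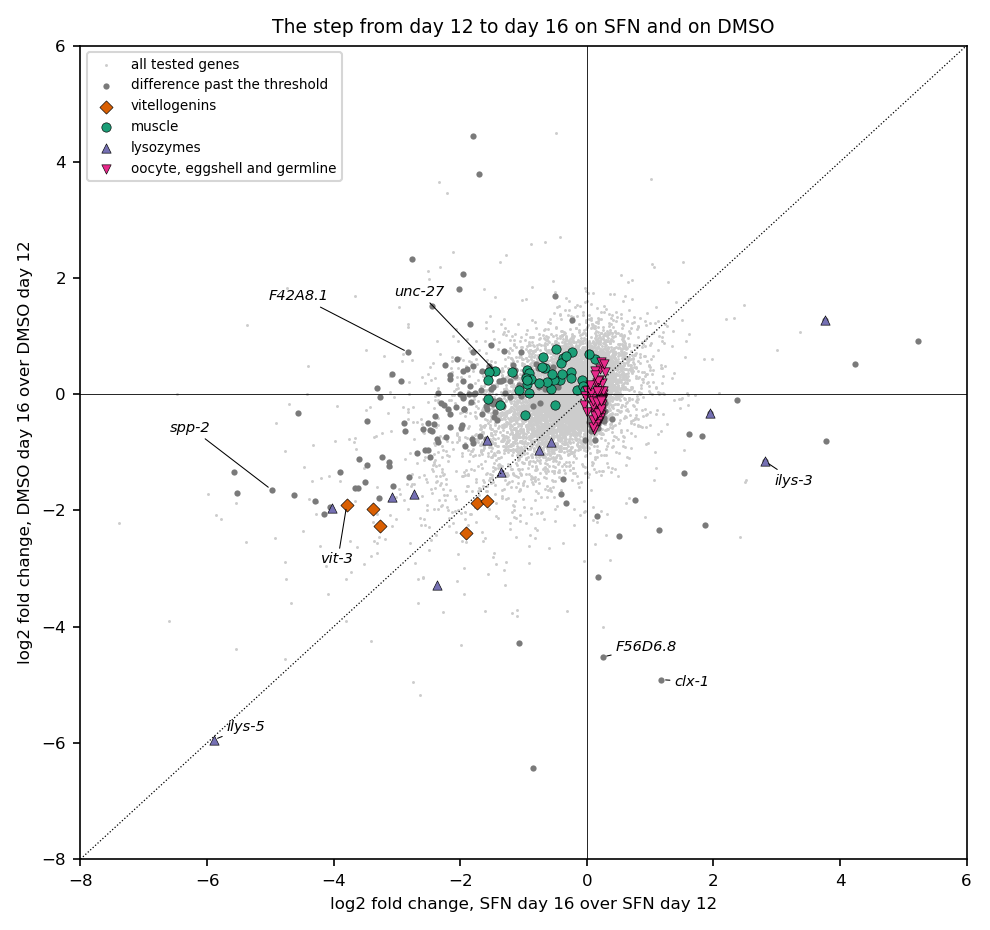
Log2 fold change of each tested gene from day 12 to day 16 on SFN (x axis) and on DMSO in the same table (y axis), 1 point per gene, with the dotted line where both are equal. Dark grey points are the 226 genes whose steps differed, green muscle genes lie mostly left of 0 and above 0, and ilys-3 and clx-1 lie right of 0 and below 0.

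The step on SFN was then set against the step on DMSO, whose libraries it does not share. The difference of the 2 steps passed for 226 genes (1.77%), 145 lower (1.14%) and 81 higher (0.636%) on SFN, and the excess of lower differences did not hold in every fit. With only the 16 compared libraries in the fit, 245 genes were lower and 345 higher, and without the 2 smallest DMSO libraries 271 were lower and 288 higher. The difference contains the SFN step, so the next counts only describe where it lay. Of the 145, 137 were among the genes that fell on SFN. Of the 81, 10 were among those that rose, 1 fell and 70 passed neither way on SFN. Without 1 SFN library the count went down to 147 (SFN day 16 replicate 1), 148 (SFN day 16 replicate 3) and 143 (SFN day 12 replicate 2).

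For most of the genes that fell on SFN, the DMSO step had the same sign. It was negative for 667 of the 790 (84.4%), with a median of -0.62, while 49.6% of all tested genes were negative there. In trials 2 and 3, 778 of the 790 were tested, 598 were negative (76.9%, against 51.7% of all genes tested in both), and 159 passed as lower (20.4%, against 4.89%). Of the 36 genes that rose and were tested there, 5 passed as higher (13.9%, against 3.26%) and 0 as lower.

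Named differences lay in both directions. Among lysozymes, ilys-3 went up on SFN and had -1.16 ± 0.23 on DMSO, a difference of 3.97 ± 0.35 (adjusted p = 1.8e-09), and ilys-2 had 2.28 ± 0.50 (adjusted p = 0.0075). Steeper on SFN were spp-2 (-3.34 ± 0.59, adjusted p = 0.0013), spp-5 (-1.51 ± 0.30, adjusted p = 0.0045), clec-50 (-2.06 ± 0.40, adjusted p = 0.0035), asp-4 (-0.96 ± 0.20, adjusted p = 0.0037) and lbp-2 (-1.32 ± 0.28, adjusted p = 0.0062). Each of these 5 had a higher mean at day 12 on SFN than on DMSO, spp-2 for instance with 275 ± 48.12 CPM at day 12 on SFN and 8.09 ± 2.89 CPM on DMSO. The gene F42A8.1 had 9.23, 14.6, 7.44 and 11.2 CPM at day 16 against 84.998, 105, 60.4 and 45.4 CPM at day 12 on SFN and averaged 10.2 ± 6.48 CPM at day 16 against 6.19 ± 1.90 CPM at day 12 on DMSO (difference -3.55 ± 0.50, adjusted p = 3.2e-05). Each difference in this paragraph passed in all 24 alternatives that could be fitted.

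Some differences lay in genes whose SFN step did not pass, as for 70 of the 81 higher ones. The gene clx-1 had 196, 173, 142 and 116 CPM at day 16 and 75.9, 26.8, 42.5 and 132 CPM at day 12 on SFN, with a step that did not pass (adjusted p = 0.19), and fell on DMSO to 0.539 ± 0.784 CPM at day 16, against 16.44 ± 10.1 CPM at day 12. The difference was 6.09 ± 0.89 (adjusted p = 0.00044). Likewise F56D6.8 had 0.25 ± 0.37 on SFN (adjusted p = 0.8) and -4.52 ± 0.53 on DMSO (adjusted p = 8.8e-08), a difference of 4.77 ± 0.65 (adjusted p = 1.9e-05). For vit-1 and vit-3, which did fall on SFN, the differences were -1.41 ± 0.38 and -1.88 ± 0.49 (adjusted p = 0.044 and 0.04). Those of the other 4 yolk genes did not pass, and with 1 of the 16 libraries left out the adjusted p ran from 0.015 to 0.18 for vit-1 and from 0.0086 to 0.22 for vit-3.

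Germline genes also moved apart. Of the 60 oocyte, eggshell and germline genes 12 differed toward higher on SFN and 0 toward lower, with step medians of 0.16 on SFN and -0.14 on DMSO. Of 34 cell cycle genes 5 differed toward higher and 0 toward lower. Over all genes tested the shares were 0.636% higher and 1.14% lower. Germline marker sums were given above with the libraries, and their part in these differences was not tested. By chromosome, 190 of 1677 tested genes on X fell on SFN (11.3%), against 69 of 2169 on chromosome I (3.18%) and 6.2% over all.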

How the data were processed

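RNA of whole worms was sequenced after KAPA mRNA HyperPrep library preparation, per the labels' protocols. The authors deposited raw counts per gene, made with featureCounts of Subread 2.0.2 against WBcel235, per the submitters' processing notes, and for the treatment table with exons of Ensembl release 108, per the file headers. The aligner is not given in the sources used here. Its command set no strand option, and the trials table has no such header, so reads of overlapping antisense genes cannot be told apart. From these deposited counts, 2 tables with 80 count columns were used, and the table of mutant strains was not used. Gene IDs were matched to the Ensembl 115 annotation for symbols and positions (46926 of 46926 found).

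The 40 N2 libraries of the treatment table were fitted in R 4.3.3 with edgeR 4.0.16 (TMM scaling, filterByExpr, 1 term per group, robust quasi-likelihood, 30 residual degrees of freedom). Adjusted p-values are Benjamini-Hochberg over all tested genes, and the threshold was 0.05. The difference of steps was a contrast of the same fit. Trials 2 and 3 were fitted apart, with terms for age and trial (34 residual degrees of freedom). CPM values of single genes use TMM library sizes, and their error is the SD of 4 libraries. Marker sums and shares of counts use total counts without TMM factors. Errors of fold changes are SEs. CPM values are not scaled for length, so levels were compared within genes only. Group, age and trial came from the labels, and no library was dropped. Replicate libraries of the 2 SFN ages differed by 3.14 to 9.98 chi-square per degree of freedom, so none was a copy of another.

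Alternatives were DESeq2 size factors, no filter, a filter of at least 10 counts, DESeq2 1.42.0, limma 3.58.1 voom with sample weights, only the compared groups, the replicate number as a block, and each library left out. The code was tested on simulated data. Named genes were the 15 largest changes in each direction with a mean of at least 5 CPM and no overlap, the 10 with the highest mean, up to 4 per list by p, up to 10 by the size of the difference of steps, up to 5 as values in lists with few calls, and a fixed set of SFN marker genes. The libraries compared and the gene lists were chosen with earlier results of these data known.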

Additional observations from a re-analysis of the deposited data

Results flagged for a closer look

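Among 240 groups of 4 SFN libraries tested for a library far from the others, 9 were flagged by Dixon's criterion for 4 values, and chance flags about 1 in 20. SFN day 16 replicate 3 was the lowest of its group for vit-2 (1450.0 CPM, others 2584 to 2805), vit-5 (1083 CPM, others 2340 to 2434), vit-6 (1932 CPM, others 3491 to 3640) and fat-3 (46.1 CPM, others 71.9 to 76.1). Its vitellogenin share of counts was 0.481%, with the others at 0.911 to 0.957%. Without that library the fold changes of these genes still passed. Of the rest, spp-4 stood at 0.192 CPM in SFN day 16 replicate 1 and at 0 in the others, and stdh-2 at 146 CPM in SFN day 16 replicate 2, with the others at 103 to 107. In SFN day 12 replicate 1, gst-5 had 351 CPM, with the others at 326 to 330. Protein genes of the mitochondrial genome took 0.715% of counts in SFN day 12 replicate 2, with the others at 0.611 to 0.629%.

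The step from day 12 to day 16 differed between SFN and DMSO, by the test of the difference itself in edgeR, for 37 of the genes named in the text. Higher on SFN were ilys-3 (3.97, log2), ilys-2 (2.28), trx-3 (2.47), Y54G2A.57 (2.54), clx-1 (6.09), F56D6.8 (4.77), F56D6.9 (5.59), cyp-33B1 (4.11), F39G3.4 (3.72), lys-3 (2.49) and rnr-1 (0.44). Lower on SFN were spp-2 (-3.34), spp-5 (-1.51), asp-4 (-0.96), clec-50 (-2.06), lbp-2 (-1.32), unc-27 (-1.84), mlc-1 (-1.15), clik-1 (-1.81), ttr-36 (-2.43), F42A8.1 (-3.55), gfi-1 (-3.82), bcf-1 (-4.25), ugt-44 (-4.24), vit-1 (-1.41), vit-3 (-1.88), clec-85 (-1.99), clec-160 (-2.25), irg-3 (-2.57), elo-5 (-2.47), elo-6 (-1.54), far-2 (-0.64), tre-3 (-1.40), gst-24 (-0.89), mup-4 (-1.47), ttr-46 (-0.82) and nlp-40 (-1.01). Among these, lys-3, rnr-1 and the last 11 lower ones each missed the threshold in at least 1 alternative. With 1 of the 16 libraries left out, the adjusted p ran from 0.0061 to 0.13 for cyp-33B1, from 0.032 to 0.18 for F39G3.4, from 0.013 to 0.16 for gfi-1, from 0.0037 to 0.15 for bcf-1, from 0.011 to 0.14 for ugt-44 and from 0.011 to 0.059 for F56D6.9. In DMSO worms at day 16 F56D6.9 had 0 counts in all 4 libraries, so its value depends on the prior count and is no bound. On SFN it had 7.303, 7.28, 11.08 and 10.6 CPM at day 16 and 18.3, 6.71, 22.6 and 16.9 CPM at day 12, and the ages overlapped. For cyp-33B1 the levels were 9.61, 11.5, 4.11 and 12.0 CPM at day 16 and 2.86, 1.88, 1.26 and 4.11 CPM at day 12 on SFN, with a step of 1.86 ± 0.71 that did not pass (adjusted p = 0.13).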

How the results depend on the processing

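Among the named genes, no fold change or difference past the threshold reversed its direction, while the fold changes of stdh-2, skn-1 and F56D6.8, which did not pass, took both signs. For day 16 against day 12 on SFN (828 genes), limma-voom gave 2728 (883 higher, 1845 lower), only the 8 compared libraries 2151 (719 higher, 1432 lower, with 770 of the 828 shared), and leaving out the 2 smallest DMSO libraries, chosen after seeing the data, 1505 (396 higher). The stricter filter gave 100 higher. Leaving out 1 library gave 535 to 835 genes, 16 to 35 higher and 515 to 800 lower. The difference of steps (226, with 81 higher and 145 lower) was 356 with no filter, 406 by DESeq2, 684 by limma-voom, 590 with only the 16 libraries (345 higher, 245 lower), 559 without the 2 smallest DMSO libraries (288 higher, 271 lower) and 143 to 203 without 1 library. Trials 2 and 3 (950) gave 599 by limma-voom and 632 to 1134 without 1 library, lowest without day 16 trial 2 replicate 4. The cause was not tested. The other alternatives stayed within 1.5 times. Same-numbered SFN libraries of the 2 ages correlated at -0.04, 0.31, 0.13 and 0.30 for day 16 replicates 1 to 4. The highest correlations with another number were 0.20, -0.03, 0.07 and 0.17, below the same number for replicates 2 to 4. The labels name no pairs and the main fit used none. Whether same-numbered libraries share a source was not tested. The replicate block gave 800 genes (36 higher, 764 lower), 219 differences and 865 in the trials. Depth of 3.23 to 8.62 M counts limits genes with few counts.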

Other observations

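Gene families beside those already described differed in the share of members that fell. Of 158 nuclear hormone receptor genes tested 3 fell and 0 rose, and of 224 F-box and MATH-BTB genes 2 fell and 1 rose, against 6.2% lower and 0.298% higher over all genes. Genes of sulfide, cysteine and hypoxia handling fell in 6 of 21 cases, with a median log2 fold change of -0.41, and in 3 without SFN day 16 replicate 1, SFN day 16 replicate 3 or SFN day 12 replicate 1. The fipr and fip genes, a family named for likeness to antimicrobial peptides, fell in 3 of 11 cases with a median of -1.29. Of the 11, 2 differed from the DMSO step toward lower on SFN, against 1.14% of all genes tested. Lysosome and autophagy genes fell in 5 of 47 cases with a median of -0.14, in 2 without SFN day 12 replicate 1 and in 11 by DESeq2.

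Within the chromosomes, 208 of 2409 tested genes on V fell (8.63%) and 142 of 2130 on IV (6.67%), while II had 94 of 2218 (4.24%) and III had 87 of 2118 (4.11%). These shares are descriptions of the tested genes, and no test was run on them.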
